A study of Mus musculus with 6 samples.

Results

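The genes described here encode the path that carries glucose through glycolysis to lactate, together with the pentose phosphate pathway, the gate into the mitochondrion and the enzymes of glycogen. They were chosen by symbol, from the known roles of their products, and 39 of the 17866 genes in the deposited table belonged to the list. They comprised 4 transporters, 9 genes of upper glycolysis, 2 regulators of phosphofructokinase, 7 genes of lower glycolysis and lactate formation, 6 genes of pyruvate dehydrogenase and its kinases, 6 pentose phosphate genes and 5 glycogen genes. Of these, 38 had enough reads to be tested, and Pdk4 did not.

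The samples were corneal epithelial layers of C57BL/6 mice at 6 months of age, 3 from wild-type mice (WT) and 3 from mice labelled Rela-/- (KO), each a separate bulk RNA-seq library. Rela encodes the RelA subunit of canonical NF-κB. Per the study's methods the mutant was a conditional one, with floxed Rela cut out by Krt14-Cre, so that only keratin 14-expressing epithelial cells and their progeny lose the gene while stromal, immune and vascular cells keep it, and the methods describe the controls only as control mice. Cre acts also in other keratin 14-positive epithelia such as conjunctiva and skin.

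Glycolysis splits glucose into pyruvate and yields ATP without oxygen. Lactate dehydrogenase then turns pyruvate into lactate, which leaves the cell through monocarboxylate transporters, or pyruvate enters the mitochondrion through pyruvate dehydrogenase, which the Pdk kinases switch off. The pentose phosphate pathway draws on glucose 6-phosphate to make NADPH and ribose, and its transketolase is among the most abundant proteins of the corneal epithelium. Corneal epithelium also stores glycogen, which its cells break down during wound healing.

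The promoters of 4 members are shown as examples of genes higher and lower in KO without overlap between genotypes: a lactate carrier, a pair of pyruvate dehydrogenase kinases and a glycogen enzyme. Each is the 250 bases before a transcription start in RefSeq (GRCm38.p6), read 5′ to 3′ on the strand of the gene, and capitals mark ACGTG or GCGTG on either strand, the core of the hypoxia-response element bound by HIF, including where this core lies inside the E-box CACGTG. Slc16a1 (chr3:104638414-104638663, plus strand) and Pdk3 (chrX:93832151-93832400, minus strand) were higher in KO. Pdk2 (chr11:95041372-95041621, minus strand) and Pygl (chr12:70227684-70227933, minus strand) were lower.
Slc16a1: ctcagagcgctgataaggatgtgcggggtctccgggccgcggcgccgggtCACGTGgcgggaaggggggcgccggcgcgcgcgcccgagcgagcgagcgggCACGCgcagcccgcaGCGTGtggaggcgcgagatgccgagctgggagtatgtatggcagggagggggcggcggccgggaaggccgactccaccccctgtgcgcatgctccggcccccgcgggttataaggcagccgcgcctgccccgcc
Pdk3: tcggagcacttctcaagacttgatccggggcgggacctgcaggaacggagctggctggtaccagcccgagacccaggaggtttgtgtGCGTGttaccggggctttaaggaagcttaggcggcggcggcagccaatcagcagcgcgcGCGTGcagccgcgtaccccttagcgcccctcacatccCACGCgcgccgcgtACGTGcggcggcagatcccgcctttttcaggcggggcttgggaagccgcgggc
Pdk2: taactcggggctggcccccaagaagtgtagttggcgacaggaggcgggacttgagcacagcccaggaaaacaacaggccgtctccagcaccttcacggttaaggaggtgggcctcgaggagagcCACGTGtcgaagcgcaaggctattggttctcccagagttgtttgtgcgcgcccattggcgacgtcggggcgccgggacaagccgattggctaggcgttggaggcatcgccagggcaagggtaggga
Pygl: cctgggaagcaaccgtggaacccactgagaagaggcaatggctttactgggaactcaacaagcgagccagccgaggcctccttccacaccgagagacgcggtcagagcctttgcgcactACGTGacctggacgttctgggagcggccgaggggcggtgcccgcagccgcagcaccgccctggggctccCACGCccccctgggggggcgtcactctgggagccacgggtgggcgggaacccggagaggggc
The core occurred 4 times in the Slc16a1 window, 4 times in that of Pdk3, 2 times in that of Pdk2 and 2 times in that of Pygl, where an E-box, which reads the same on both strands, counts as 2. Pdk2 has another annotated start, whose window held no match.

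Promoter windows were found for 38 of the 39 members, 56 windows in all. The hypoxia-response core was present in 43 of 56 member windows (76.8%), against 38.6% of the 32851 windows of all genes. It was as common in windows of members higher in KO (23 of 30, 76.7%) as in windows of members lower in KO (13 of 17, 76.5%). Member windows were also richer in G and C than those of all genes, with a median GC content of 60.4% against 52.4% and a median of 14.5 CpG dinucleotides against 6. The E-box, which holds the same ACGTG letters, was present in 10.7% of member windows and 6.02% of all windows. A κB motif, the sequence bound by NF-κB, was matched in 4 of the 56 member windows (7.14%) and in 7.25% of all windows.

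Rela itself was counted 1871, 1844 and 1855 times in WT and 318, 223 and 313 times in KO. All 3 KO libraries lay far below all 3 WT libraries, in the direction of their labels, and the log2 fold change was -2.60 with an SE of 0.141 (adjusted p = 2.74e-06, edgeR's quasi-likelihood test with Benjamini-Hochberg adjustment over all genes tested, as for every adjusted p given here). In bulk libraries fewer cells of a type and less RNA per cell cannot be told apart. Total counts ran from 20158404 to 20880347 per library, so depth hardly differed between genotypes. The make-up of the tissue did differ. All 5 corneal epithelial markers tested were lower in KO (summed level 102475 to 109201 transcripts per 1000000 (TPM, which corrects for gene length) in WT and 19283 to 22127 in KO). All 6 epidermal markers were higher (20.8 to 28.0 TPM in WT, 15211 to 23690 in KO). The 5 tested conjunctival and goblet cell markers were higher too (2694 to 3836 TPM in WT, 50805 to 66777 in KO). Of the 6 listed, 2 were at 0 in every WT library. Their sum was mostly Krt13 and Krt4, at means of 41907 and 17801 TPM in KO. The goblet cell genes Muc5ac, Spdef and Tff1 averaged 1, 7.54 and 1.04 TPM in KO. Stromal markers rose from a summed 0.950 to 2.47 TPM in WT to 14.6 to 27.0 TPM in KO, and all 5 tested passed the test. The 1 vessel marker tested, Pecam1, was higher (sum 0.03 to 0.16 TPM in WT, 0.45 to 0.47 in KO). Of the 6 listed skeletal muscle markers 2 were tested, Mylpf and Myh1, and both were higher. The muscle sums were 2.84 to 3.73 TPM in WT and 4.99 to 6.41 TPM in KO. Myh1 had no reads in WT and was tested only through its KO reads. Kdr, Tek, Acta1, Ckm, Myh4 and Tnnt3 had too few reads to be tested and overlapped between genotypes. Myh4 and Tnnt3 had no reads in KO. Of 2 nerve and glial markers 1 was higher and 1 lower (1.51 to 2.07 TPM in WT, 20.8 to 33.0 in KO), and of 3 red blood cell markers 2 were higher (5.11 to 8.07 TPM in WT, 14.1 to 21.04 in KO). Of 5 leukocyte markers tested 3 were higher and 1 lower, with sums that overlapped (178 to 205 TPM in WT, 183 to 249 in KO). In WT that sum was mostly Itgam, which fell from a mean of 124 to 64.5 TPM, and Cd68, which was not called (53.2 and 44.5). Cd74 rose from 14.1 to 89.5 TPM, Lyz2 from 0.13 to 15.8 and Ptprc from 0.183 to 1.85. These shifts accompany every result that follows, and their part in the results was not tested.

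A single WT library stood apart for the glycolytic genes and the transporters. WT replicate 2 was the highest of the 3 WT libraries for 14 of the 16 glycolytic and lactate dehydrogenase genes (87.5%), against 33.2% of all genes tested. Its level was a median of 1.34 times the mean of WT replicates 1 and 3 over these 16 genes, 1.84 times over the 3 transporters with reads in WT and 0.996 times over all genes. Over the 38 tested members WT replicate 2 was highest for 23 (60.5%), with a median of 1.13. It was highest for 4 of 5 glycogen genes. In contrast, it was highest for 1 of 6 pentose phosphate genes, 1 of 5 pyruvate dehydrogenase and kinase genes and 0 of 2 regulators. Changes without this library are given below for the transporters and the glycolytic genes.

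Across the whole list, 23 of the 38 tested members were higher in KO and 9 were lower at an adjusted p of 0.05 or less, a share of 60.5% and 23.7%. Of all 13305 genes tested, 31.8% were higher and 30.2% lower. The share of members called lay above that of all genes on the higher side and below it on the lower side. The list was chosen with earlier results of these data known, and the part of that choice in this difference was not tested. The median log2 fold change of the members was 0.64, also with Slc2a3, which had no WT reads, set at its lower bound, against 0.01 for all genes. At the threshold of the study's methods, which asks for an adjusted p of at most 0.001 and at least a 2-fold change, 14 members were higher and 3 lower, where 11.6% and 8.24% of all genes were. Without WT replicate 3 the count of higher members at this threshold was 9, since Slc2a3, Slc16a3, Hk2, Tpi1 and Ldhb then had adjusted p-values between 0.00102 and 0.00179. The 3 KO libraries all lay above the 3 WT libraries for 22 tested members and all below them for 10, against 34.7% and 33.9% of all genes. Slc2a3 is in the 23, the 14 and the 22, although it was tested only through its KO reads and could only lie higher. Without WT replicate 2, 22 members were higher and 9 lower, with a median of 0.79. Of the 32 calls, 29 held in the same direction in all 17 alternative analyses in which the gene could be tested. The exceptions were Pfkl, Pgls and Gys1.

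**Figure D1:**
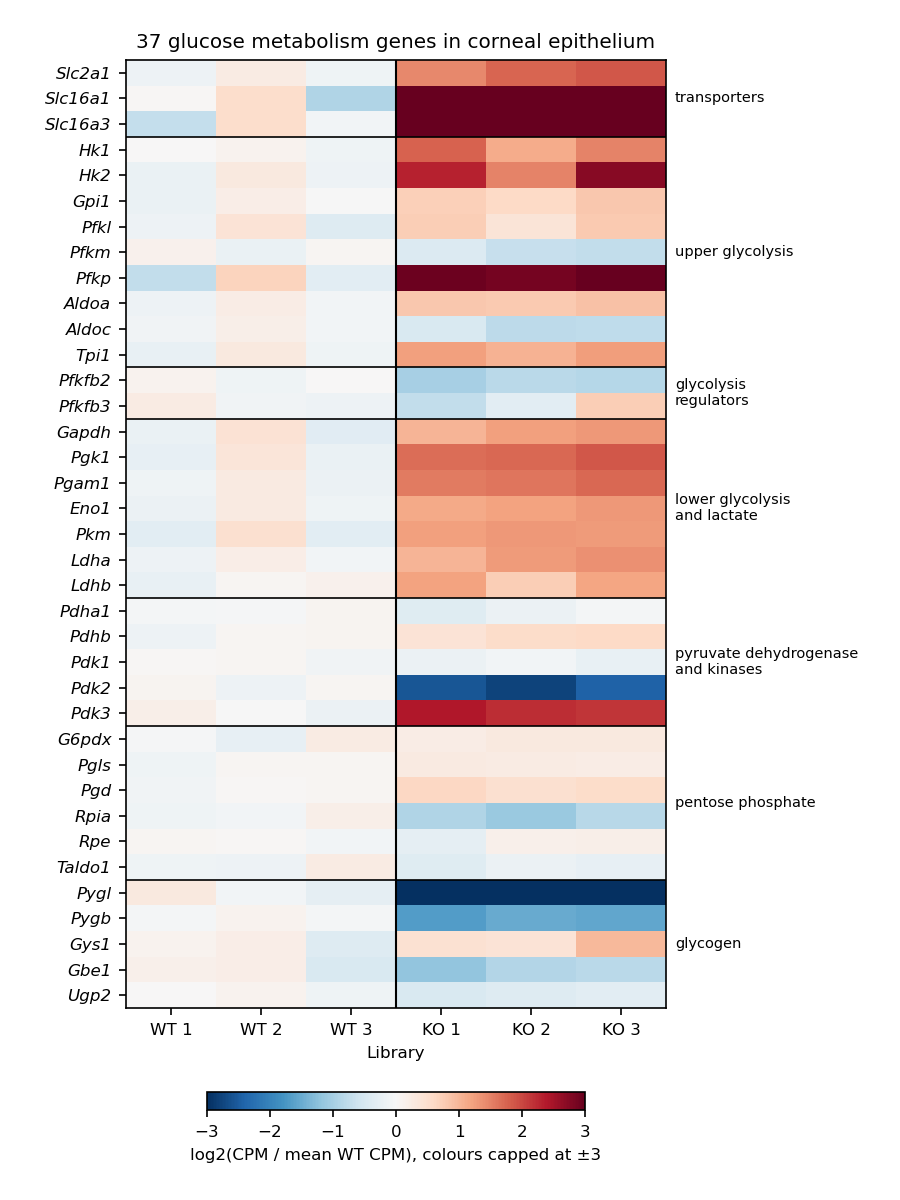
Level of 37 genes in each of the 6 libraries (columns), as log2 of reads per 1000000 after scaling (CPM) over the gene's mean CPM in WT, grouped by pathway step (rows); red is above and blue below the WT mean, with colours capped at 3. The 7 lower glycolysis genes are red in every KO library, Pygl and Pdk2 are deep blue in all 3, and WT 2 is slightly red for most glycolytic genes. Slc2a3 and Pdk4, which had no reads in WT, are left out.

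All 4 transporters of glucose and lactate were higher in KO and passed the study's threshold. Slc2a3 had no reads in WT, so it was tested only through its KO reads and could only be called higher. Among all genes tested, 31.8% were higher and 11.6% were higher at that threshold. Slc16a3 missed that threshold without WT replicate 3 (adjusted p = 0.00102), and Slc2a3 missed it when any library other than WT replicate 2 was left out (adjusted p from 0.00108 to 0.00209). The 4 genes had a summed level of 80.0 ± 13.5 TPM in WT and 226 ± 32.2 in KO (SD, n = 3 each). Slc2a1 encodes GLUT1, a widespread basal glucose carrier (gene 20525, chr4:119107031-119138802, GRCm38). Its estimated counts were 1776, 2310 and 1760 in WT and 4887, 6061 and 6620 in KO. Every KO library held more than the highest WT library. Its normalised level, in reads per 1000000 after scaling (CPM), went from 90.7 ± 14.5 to 294 ± 42.1, 3.24-fold (log2 fold change 1.70, SE 0.151, adjusted p = 3.43e-05), and its log2 fold change was 1.84 without WT replicate 2. Slc2a3, the high-affinity carrier GLUT3, had no reads in any WT library and 17, 16 and 19 in KO, which is at least 6.23-fold higher when each WT library is set at a floor of 3 counts. It stayed a trace transcript beside Slc2a1, at 0.387 TPM in KO against 199 TPM.

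Slc16a1 and Slc16a3 encode MCT1 and MCT4, the carriers that move lactate across the cell membrane. Slc16a1 (gene 20501, chr3:104638664-104658462, GRCm38), whose promoter is shown above, was counted 48, 66 and 24 times in WT and 702, 879 and 776 times in KO. Every KO library lay far above the highest WT library. The mean level rose 18.5-fold, from 2.14 ± 0.969 to 39.4 ± 4.32 CPM (log2 fold change 4.20, SE 0.277, adjusted p = 7.31e-06). Slc16a3 had 11.0, 25.8 and 16.5 estimated reads in WT and 219, 189 and 511 in KO. KO replicate 3 held more than the other two KO libraries, and all 3 lay above WT. Its log2 fold change reached 4.21 (SE 0.478, adjusted p = 1.22e-04). The span of Slc16a3 overlaps that of Csnk1d, whose mean estimated count was 3348 in WT and 2811 in KO. Without WT replicate 2 the log2 fold changes of the lactate carriers were 4.56 and 4.60. The split between the carriers overlapped between genotypes, with Slc16a1 at 57.5% of their summed TPM in WT and 59.97% in KO.

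Among the other carriers of the list of related genes, the changes went both ways. Slc16a7, encoding the lactate and pyruvate carrier MCT2, fell (114, 79.1 and 68.6 estimated reads in WT; 22.9, 15.8 and 20.7 in KO; log2 fold change -2.01, adjusted p = 3.59e-04). The intracellular glucose carrier Slc2a8 fell too, from 245, 290 and 265 to 129, 113 and 88 reads (log2 fold change -1.17, adjusted p = 4.82e-04). Bsg, the chaperone that brings MCT1 and MCT4 to the membrane, missed the test (log2 fold change 0.23, adjusted p = 0.0553), although its groups did not overlap. Without WT replicate 2 Bsg passed narrowly (0.30, adjusted p = 0.0457). Its relative Emb was higher (log2 fold change 1.57, adjusted p = 0.00114, and 1.29 without WT replicate 2).

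In glycolysis itself, 14 of the 16 genes for enzymes and lactate dehydrogenase were higher in KO and 2 were lower. These shares were 87.5% and 12.5%, against 31.8% and 30.2% of all genes tested. The summed level of the 16 went from 5011 ± 1172 to 8864 ± 504 TPM (SD, n = 3 each), a ratio of 1.77. The ratio was 2.10 on the deposited FPKM scale, which corrects for length and depth but does not fix the total. The hexokinases, which trap glucose in the cell, were both higher. Hk1 counts were 1458, 1534 and 1272 in WT and 4464, 2852 and 3717 in KO. Hk2, the insulin- and hypoxia-responsive isoform, had 414, 575 and 411 reads in WT and 2109, 1222 and 2885 in KO. Neither gene overlapped between genotypes, although the KO libraries of Hk2 spread more widely than those of Hk1. Their log2 fold changes reached 1.48 (SE 0.162, adjusted p = 9.88e-05) and 2.26 (SE 0.293, adjusted p = 2.53e-04), and 1.55 and 2.44 without WT replicate 2. Hk1 remained the larger of the pair in every library, and the Hk2 share of their summed TPM was 18.6% in WT and 27.6% in KO.

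The isoforms of phosphofructokinase, the committed step, moved in opposite directions. Pfkp, the platelet isoform, had 133, 346 and 173 estimated reads in WT and 1529, 1472 and 1709 in KO. WT replicate 2 was the highest WT library and still lay far below the KO libraries. The level rose 7.78-fold, from 10.1 ± 5.28 to 78.8 ± 5.80 CPM (log2 fold change 2.96, SE 0.308, adjusted p = 7.63e-05), and the log2 fold change was 3.47 without WT replicate 2. Pfkm, the muscle isoform, went the other way, from 1167, 918 and 1087 to 732, 608 and 595 (log2 fold change -0.60, adjusted p = 0.00342, and -0.69 without WT replicate 2), with no overlap. Pfkl, the liver isoform, was counted 1519, 2207 and 1238 times in WT and 2538, 2005 and 2656 times in KO. Its groups overlapped through WT replicate 2, and its log2 fold change of 0.65 (adjusted p = 0.0223) was called in 13 of the 17 alternatives. Without WT replicate 2 it was 0.92 (adjusted p = 0.00132). As shares of the summed TPM of the 3 genes, Pfkp went from 6.40% ± 2.64 to 31.3% ± 1.46, Pfkm from 39.7% ± 9.81 to 15.8% ± 1.92, and Pfkl stood at 53.9% and 53.0% (SD, n = 3 each). Reads of all 3 genes were assigned in part by estimation, since their counts were not whole. The span of Pfkp overlaps that of Pitrm1, whose mean estimated count was 582 in WT and 851 in KO. Those of Pfkl and Pfkm also overlap other genes.

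The regulators of this step make or remove fructose 2,6-bisphosphate, its strongest activator. Pfkfb2 fell from 2972, 2498 and 2675 estimated reads to 1247, 1430 and 1404, without overlap (log2 fold change -0.89, SE 0.0957, adjusted p = 9.16e-05). Its span overlaps that of AA986860, whose mean estimated count was 8917 in WT and 4615 in KO. Pfkfb3, the inducible form with strong kinase activity, had 990, 764 and 730 reads in WT and 458, 614 and 1284 in KO. A single KO library, replicate 3, lay above WT and the other two lay below, so that the log2 fold change was 0.03 (adjusted p = 0.943) with all libraries and -0.51 (adjusted p = 0.0408) without KO replicate 3.

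The remaining enzymes of upper glycolysis were more even. Tpi1, triose phosphate isomerase, was counted 3256, 4611 and 3332 times in WT and 8011, 7191 and 8359 times in KO (log2 fold change 1.18, adjusted p = 2.22e-04). Aldoa, the main aldolase, went from 9944, 12669 and 10099 to 17572, 17326 and 18841 (log2 fold change 0.82, adjusted p = 5.59e-04). Gpi1, glucose 6-phosphate isomerase, went from 5536, 7154 and 6057 to 9475, 8842 and 10303 (log2 fold change 0.72, adjusted p = 0.00118). All 3 were separated between genotypes. Aldoc, the minor aldolase, fell from 958, 1152 and 950 to 681, 546 and 559 (log2 fold change -0.67, SE 0.127, adjusted p = 0.00203). Without WT replicate 2 the log2 fold changes were 1.37 for Tpi1, 0.95 for Aldoa, 0.83 for Gpi1 and -0.56 for Aldoc. Aldoa made up 95.03% of aldolase TPM in WT and 98.2% in KO.

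**Figure D2:**
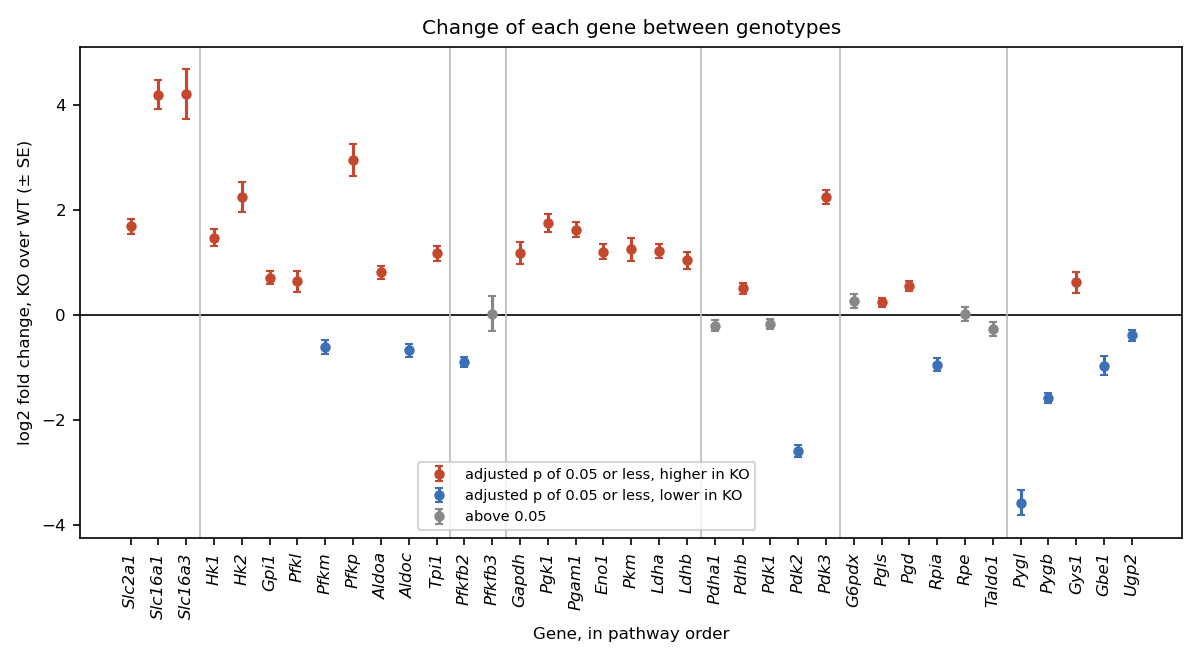
Log2 fold change of each gene, KO over WT, with its standard error (vertical axis), in pathway order (horizontal axis, grey lines between pathway steps); red genes were higher and blue genes lower at an adjusted p of 0.05 or less. The 7 genes of lower glycolysis lie in a narrow band between 1.05 and 1.76, whereas the kinase and glycogen genes spread from 2.26 to -3.57.

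The 7 genes of lower glycolysis and lactate formation moved together. All 7 were higher in KO, all 7 were separated between genotypes and their log2 fold changes lay between 1.05 and 1.76. Among all genes tested, 31.8% were higher and 34.7% had every KO library above every WT library. The 7 genes are described in turn. The summed level of the 7 was 3615 ± 959 TPM in WT and 6834 ± 512 TPM in KO (SD, n = 3 each). Gapdh, the most abundant, had 18848, 28566 and 16535 estimated reads in WT and 39713, 46488 and 49377 in KO (log2 fold change 1.19, SE 0.205, adjusted p = 0.00115). Its mean level was 1663 TPM in WT and 2996 in KO, and its change did not reach the study's threshold on the adjusted p. Pkm, pyruvate kinase, was counted 11224, 19370 and 10814 times in WT and 29551, 31322 and 31191 times in KO (log2 fold change 1.26, SE 0.219, adjusted p = 0.00121). For both genes WT replicate 2 was the high WT library, and without it the log2 fold changes were 1.47 and 1.59. The M1 and M2 forms of Pkm are splice forms of 1 gene and were not told apart here.

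Pgk1, which makes the first ATP of glycolysis, showed the largest change of the 7. It was counted 2238, 3359 and 2225 times in WT and 7716, 8002 and 8882 times in KO (log2 fold change 1.76, SE 0.170, adjusted p = 5.22e-05). Pgam1, phosphoglycerate mutase, followed with 2484, 3218 and 2341 reads in WT and 7296, 7576 and 8309 in KO (log2 fold change 1.64, SE 0.135, adjusted p = 2.32e-05). The KO libraries of both genes lay well above WT replicate 2, the highest WT library. Eno1, the ubiquitous enolase, went from 7578, 10228 and 7614 to 17084, 18277 and 19422 (log2 fold change 1.22, adjusted p = 1.37e-04). Without WT replicate 2 the log2 fold changes were 1.99 for Pgk1, 1.79 for Pgam1 and 1.38 for Eno1.

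Lactate dehydrogenase was higher through both of its subunits. Ldha, the subunit that favours lactate formation, was counted 7602, 9513 and 7634 times in WT and 15252, 18583 and 19937 times in KO (log2 fold change 1.23, SE 0.141, adjusted p = 1.31e-04). Ldhb, the subunit that favours pyruvate formation, went from 248, 296 and 307 to 598, 437 and 603 (log2 fold change 1.05, SE 0.159, adjusted p = 5.83e-04). Without WT replicate 2 the values were 1.35 and 1.09. Since both rose, their balance overlapped between genotypes, with Ldha at 95.8% of the summed TPM in WT and 96.2% in KO.

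At the entry to the mitochondrion, 2 of the pyruvate dehydrogenase kinases moved in opposite directions. Pdk2, the most abundant kinase in WT (gene 18604, chr11:95026258-95041371, GRCm38), was counted 2147, 1792 and 2050 times in WT and 309, 270 and 346 times in KO. Every KO library lay far below the lowest WT library. Its level fell to 16.7% of that in WT, from 92.9 ± 8.30 to 15.5 ± 1.85 CPM (log2 fold change -2.59, SE 0.122, adjusted p = 1.55e-06). Pdk3 (gene 236900, chrX:93764616-93832095, GRCm38) went from 178, 154 and 135 to 761, 667 and 640 reads, again without overlap. Its level rose 4.79-fold, from 7.24 ± 0.883 to 34.6 ± 3.48 CPM (log2 fold change 2.26, SE 0.134, adjusted p = 4.21e-06). The 3 libraries of each genotype lay close together for both kinases, and leaving out WT replicate 2 gave -2.65 and 2.26.

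Pdk1, the kinase best known as a HIF target, had 1716, 1724 and 1514 estimated reads in WT and 1339, 1449 and 1314 in KO and did not pass the test (log2 fold change -0.16, adjusted p = 0.14). Pdk4, the kinase induced by fasting, had no reads in WT and 2.13, 2.91 and 1.04 in KO, under the floor of 3 counts, and was not tested. On the length-corrected scale the summed level of the 4 kinases was 139 TPM in WT and 72.5 TPM in KO. Within that sum Pdk2 went from 65.1% ± 3.13 to 16.5% ± 2.35, Pdk3 from 5.76% ± 0.605 to 41.7% ± 2.54 and Pdk1 from 29.1% to 41.7% (SD, n = 3 each). The libraries of the 2 genotypes did not overlap in the shares of Pdk1, Pdk2 and Pdk3.

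**Figure D3:**
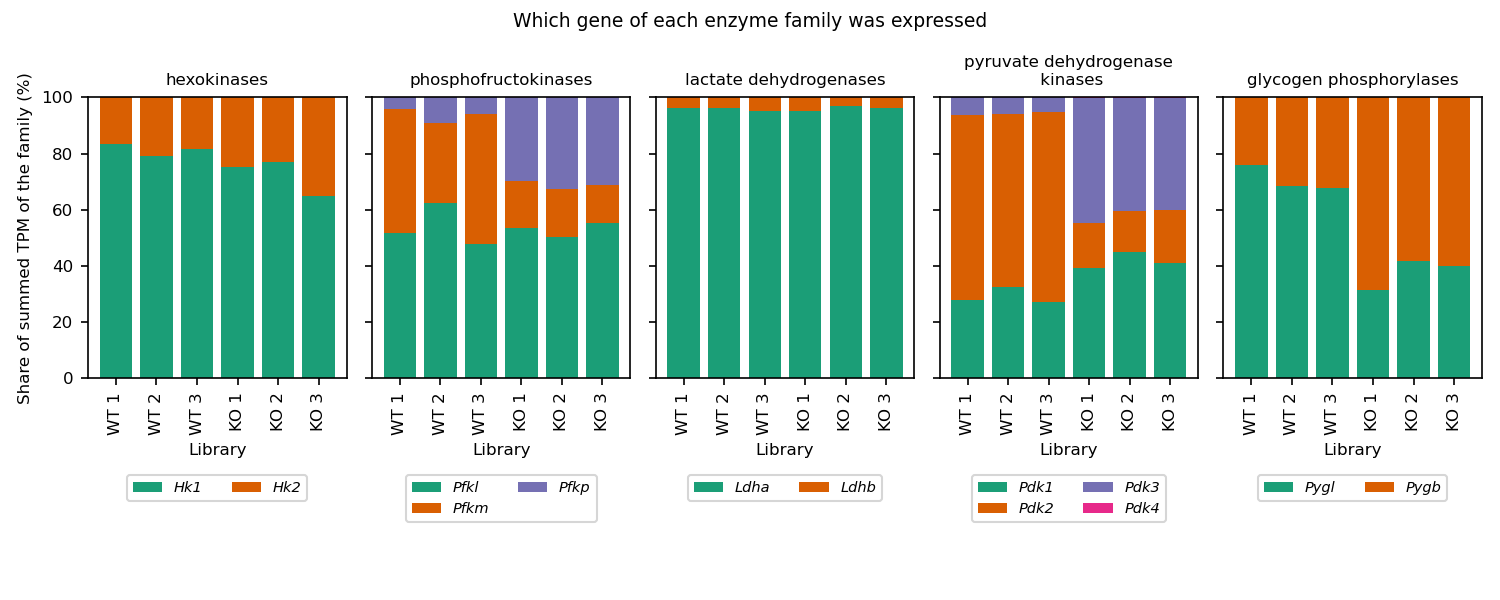
Share of each gene in the summed TPM of its enzyme family (vertical axis, %) in each of the 6 libraries (horizontal axis), for hexokinases, phosphofructokinases, lactate dehydrogenases, pyruvate dehydrogenase kinases and glycogen phosphorylases. Pfkp averages 6.40% in WT and 31.3% in KO and Pdk3 5.76% and 41.7%, whereas lactate dehydrogenase is almost wholly Ldha in every library.

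The subunits of pyruvate dehydrogenase did not move as one. Pdha1, the catalytic alpha subunit, had 3102, 3143 and 3344 estimated reads in WT and 2270, 2637 and 2876 in KO, and overlapped between genotypes once normalised (log2 fold change -0.19, adjusted p = 0.136). Pdhb, its beta partner, was higher (log2 fold change 0.51, adjusted p = 0.00212). Of the 8 related genes of pyruvate entry, 4 were lower (50%) and 1 higher (12.5%), against 30.2% and 31.8% of all genes. The mitochondrial pyruvate carrier was lower in both subunits, Mpc1 (log2 fold change -0.61, adjusted p = 0.00317) and Mpc2 (-0.73, adjusted p = 6.30e-04). Pdhx, the protein that tethers subunits of the complex, had a value of -0.82, and Pdp2, a phosphatase that reactivates it, one of -0.80, both past the test. Dld, the E3 subunit shared with other dehydrogenases, was the 1 that was higher (0.45, adjusted p = 0.00478).

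Of the 6 pentose phosphate members 2 were higher (33.3%, near the 31.8% of all genes), 1 was lower (16.7%, against 30.2%) and none reached the study's threshold. G6pdx, which encodes the rate-limiting first enzyme, averaged 391 ± 67.2 CPM in WT and 473 ± 11.6 CPM in KO and did not pass the test (log2 fold change 0.27, adjusted p = 0.105). Pgd, the second NADPH-producing enzyme, was higher by a log2 fold change of 0.56 (adjusted p = 0.00109). Pgls, the lactonase between them, was at the threshold (0.25, adjusted p = 0.0344), a call made in 5 of the 17 alternatives. When counts were corrected for gene length it turned to -0.39 and was called lower. Rpia, which makes ribose 5-phosphate, fell from 756, 764 and 900 reads to 396, 346 and 426 (log2 fold change -0.94, SE 0.124, adjusted p = 2.72e-04). Rpe, its epimerase neighbour, stood at 0.03 (adjusted p = 0.852).

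The non-oxidative arm held the largest change of the pathway, in a gene outside the 39. Taldo1, transaldolase, was counted 6039, 5896 and 7625 times in WT and 4691, 5361 and 5137 times in KO, and did not pass the test although its groups did not overlap (log2 fold change -0.26, adjusted p = 0.112). Tkt, transketolase, was counted 167235, 152181 and 141443 times in WT and 15983, 17463 and 18658 times in KO. No KO library came near the WT range. The level in KO was 12.2% of that in WT, 872 ± 60.2 against 7146 ± 485 CPM (log2 fold change -3.04, SE 0.129, adjusted p = 1.01e-06). H6pd, the enzyme of the endoplasmic reticulum counterpart of the oxidative arm, fell from 913, 762 and 850 to 275, 324 and 249 (log2 fold change -1.46, adjusted p = 3.22e-05). The summed level of the 6 members was 1336 ± 108 TPM in WT and 1140 ± 25.5 TPM in KO (SD, n = 3 each), a ratio of 0.853 that became 1.01 on the FPKM scale. With a WT mean of 4883 TPM, Tkt alone exceeded the 6 members together in WT, and in KO it averaged 469 TPM.

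Of the 5 glycogen members 4 were lower (80%) and 1 was higher (20%), against 30.2% and 31.8% of all genes. Their summed level went from 286 ± 49.5 TPM in WT to 74.4 ± 7.21 TPM in KO (SD, n = 3 each). Pygl, the liver glycogen phosphorylase that releases glucose 1-phosphate (gene 110095, chr12:70190815-70227683, GRCm38), was counted 4990, 3783 and 3242 times in WT and 211, 379 and 346 times in KO. All 3 KO libraries lay far below the WT range. Its level fell to 8.41% of that in WT, from 186 ± 38.5 to 15.7 ± 4.39 CPM (log2 fold change -3.57, SE 0.237, adjusted p = 7.59e-06). Pygb, the brain form of the same enzyme, had 2162, 2393 and 2101 estimated reads in WT and 635, 725 and 708 in KO (log2 fold change -1.58, SE 0.0943, adjusted p = 4.33e-06). Its span overlaps that of Abhd12, whose mean estimated count was 4239 in WT and 1917 in KO. Together the 2 phosphorylases averaged 205 TPM in WT and 25.3 TPM in KO, and the share of Pygl in that sum went from 70.7% ± 4.53 to 37.6% ± 5.63.

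The genes that build glycogen were less uniform. Gbe1, the branching enzyme, fell from 851, 863 and 540 reads to 301, 376 and 399 (log2 fold change -0.96, SE 0.187, adjusted p = 0.0023). Ugp2, which makes UDP-glucose, was lower by a smaller step (-0.38, SE 0.0967, adjusted p = 0.00837). Both were separated between genotypes. Gys1, glycogen synthase, was the exception, with 364, 386 and 253 estimated reads in WT and 418, 415 and 609 in KO. Its libraries did not overlap, but its log2 fold change of 0.63 (SE 0.198, adjusted p = 0.0218) was called in 12 of the 17 alternatives, and its span overlaps that of Ruvbl2, with a mean estimated count of 608 in WT and 602 in KO.

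**Figure D4:**
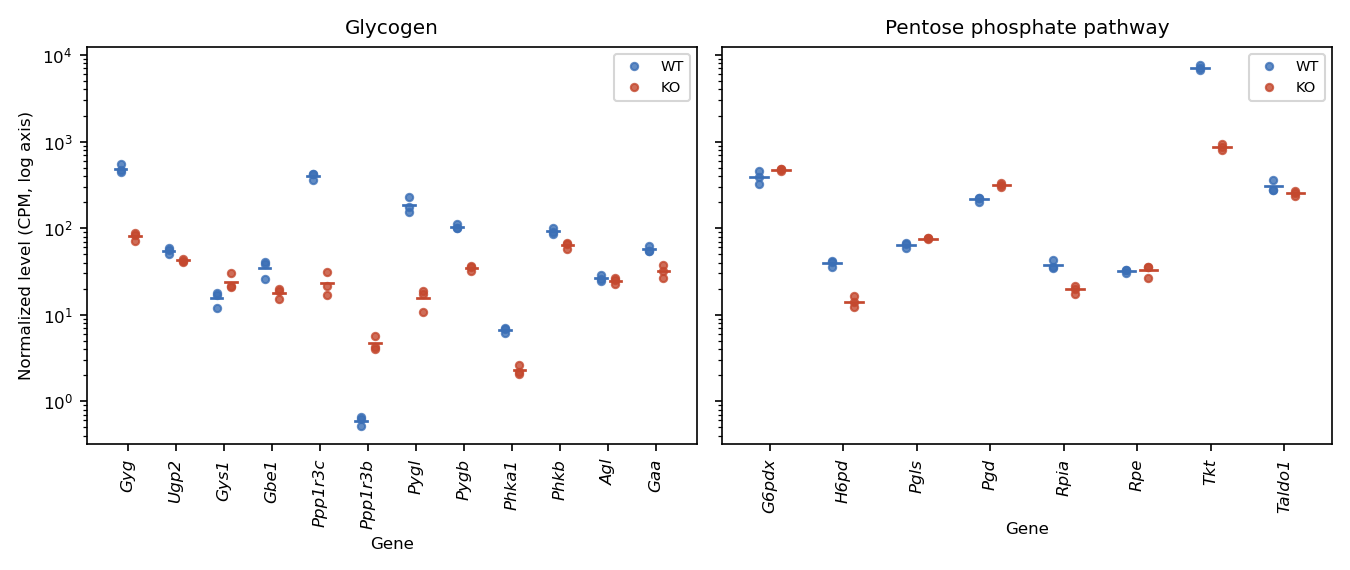
Normalised level (CPM, log axis) of 12 glycogen genes and 8 pentose phosphate genes in each of 3 WT (blue) and 3 KO (red) libraries; points are libraries and bars their means. Ppp1r3c, Pygl, Tkt and Gyg lie at 5.74%, 8.41%, 12.2% and 16.5% of their WT level in KO, while Ppp1r3b is higher in KO from a low level.

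Of 15 related glycogen genes tested 7 were lower (46.7%), 2 were higher (13.3%) and 6 did not pass the test, against 30.2% lower and 31.8% higher of all genes. Gyg, glycogenin, the protein on which each glycogen particle is started, went from 10384, 9544 and 11492 reads in WT to 1392, 1657 and 1774 in KO (log2 fold change -2.60, SE 0.129, adjusted p = 1.94e-06). Ppp1r3c, the scaffold that brings protein phosphatase 1 to glycogen, fell to 5.74% of its WT level, from 9303, 7771 and 8960 reads to 332, 423 and 632 (log2 fold change -4.12, SE 0.230, adjusted p = 3.03e-06). For both genes every KO library lay far below the lowest WT library. Another scaffold of the same family, Ppp1r3b, rose from 13.4, 11.1 and 14.03 estimated reads to 83.2, 80.3 and 115 (log2 fold change 2.97, adjusted p = 3.42e-05). Phka1, a regulatory subunit of phosphorylase kinase, fell too (log2 fold change -1.54, adjusted p = 1.40e-04).

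The related genes of these pathways listed beside the 39 were, like the members, chosen with earlier results of these data known. Of them 60 were in the table and 49 were tested. In KO 11 were higher and 22 lower (22.4% and 44.9%), against 31.8% and 30.2% of all genes, with a median log2 fold change of -0.27, against 0.64 for the members and 0.01 for all genes. The split was 3 higher and 2 lower of 10 in glycolysis, 3 and 3 of 7 among carriers, 1 and 3 of 5 in the pentose phosphate pathway and 1 and 3 of 4 in gluconeogenesis. At the study's threshold 2 were higher, Ppp1r3b and Fbp2, and 7 were lower, namely Slc2a8, Slc16a7, Tkt, H6pd, Gyg, Phka1 and Ppp1r3c. Fbp2, the muscle fructose bisphosphatase that runs against phosphofructokinase, rose from 11, 4 and 17 reads to 108, 104 and 104 (log2 fold change 3.40, SE 0.382, adjusted p = 1.17e-04). The other 3 gluconeogenesis genes tested, Pck2, Pcx and G6pc3, were lower, by -0.72, -0.51 and -0.58 on the log2 scale.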

How the data were processed

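Bulk RNA-seq was made from 3 WT and 3 KO corneal epithelial samples, which the study's methods call independent biological samples. Reads were, per the labels and the submitters' processing notes, aligned with Bowtie2 (2.2.5) and quantified with RSEM (1.2.12), which divides reads shared between genes. The deposited table held estimated counts, FPKM and TPM per library. Its columns of group averages and of the authors' own log2 fold changes and p- and q-values were not used. The labels name an mm9 build, but the chromosome accessions in the table were those of GRCm38. The strand setting of the counting is not given in the sources used here, so how well reads of overlapping genes were separated cannot be checked. By the coordinates in the table, 20 of the 39 gene spans overlapped another listed gene. Some overlapping spans were long enough to reach more than 1 member. LOC102638183 reached Slc2a1, Pgd and Eno1, and Rcor3 reached Pfkfb2 and Rpe. Pgd and Eno1 overlapped no other listed gene. A gene was called shared where any count was not whole within 0.005 (17 members).

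Estimated counts were rounded and tested with edgeR (4.0.16, R 4.3.3) by the quasi-likelihood test, with TMM scaling, filterByExpr and genotype as the only term. Benjamini-Hochberg adjustment ran over all 13305 genes tested. The SE was the absolute log2 fold change over the square root of F. CPM were scaled by the TMM factors, and levels of different genes were compared in TPM only. Alternatives used DESeq2 (1.42.0), limma (3.58.1) on log2(FPKM + 1) and log2(FPKM + 0.1), other scalings and filters, a length correction, a replicate block and each library left out in turn. The script was tested on simulated data. Counts in every library are given for members called with a change of at least 1.5-fold and for the most abundant member of each pathway step, and of the related genes those at the study's threshold and Tkt are named. Genes named outside these rules (Bsg, Emb, Mpc1, Mpc2, Pdhx, Pdp2, Dld, Pck2, Pcx and G6pc3, and further members' counts) were added after their values were seen. The members and lists were chosen with earlier results of these data known.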

Additional observations from a re-analysis of the deposited data

How the results depend on the processing

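The counts of members called moved little: across the alternatives 20 to 23 were higher and 9 to 12 lower, with 22 and 12 when libraries were scaled by total counts, 21 and 11 with limma on either pseudocount, and 22 and 11 with the length correction. At the study's threshold the count of higher members was 14 and ranged from 9 to 15 when a library was left out, the lowest without WT replicate 3. The count of lower members was 3 and became 5 with limma on log2(FPKM + 0.1). With FPKM in place of TPM the KO-over-WT ratio of summed levels was 1.72 for upper glycolysis, 0.847 for pyruvate dehydrogenase and its kinases and 1.01 for the pentose phosphate members, the last in the opposite direction. The genes that changed sign had small changes in the main fit. Pfkfb3 was at -0.0667 with total counts, -0.15 and -0.18 with limma, and between -0.51 and 0.30 when a library was left out. Rpe was at -0.0618 with total counts, -0.0593 and -0.0646 with limma, and between -0.0424 and 0.16 when a library was left out. With the length correction Pdk1 was at 0.0560 and Pgls at -0.39. That value of Pgls was larger in size than its 0.25 in the main fit, and Pgls was called lower there. The median log2 fold change of all genes moved by -0.0948 with total counts and by -0.0702 and -0.0932 with limma. The cause of the changes of sign was not tested.

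Same-numbered WT and KO libraries had deviations correlated at 0.0345, -0.00998 and 0.0606. Differently numbered ones lay between -0.159 and 0.123. No shared signal of replicate number was seen, which cannot show whether the samples were paired by origin or handling. With the replicate block 21 members were higher and 9 lower, 11 were higher at the study's threshold, Gys1 (adjusted p = 0.0503) and Pgls (adjusted p = 0.0520) missed the threshold and Pfkfb3 was at -0.0886. Replicate libraries differed by more than sampling noise. With 3 libraries a genotype, genes with few reads, such as Slc2a3 and Pdk4, are measured least precisely.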
